A study of Gallus gallus with 9 samples.

Results

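The genes described here encode 7 enzymes of glycolysis, HK1, PFKP, ALDOC, TPI1, GAPDH, PGK1 and ENO1, and the lactate dehydrogenase subunits LDHA and LDHB. They were chosen by name, with earlier results of these data known. Every entry of the deposited files that a RefSeq gene table assigned to one of them was summed per gene. All 9 had an entry, of 14080 genes with one. RNA of chick embryos (Gallus gallus) was sequenced in 9 libraries, 3 per tissue. The tissues were periocular neural crest of embryonic day 3 (E3), E5 endothelium of the cornea, and E7 endothelium with keratocytes, a mixture. The labels give neither a strain nor a treatment for any tissue, and nothing says that libraries of 1 tissue came from different embryos, so p-values measure the spread between libraries, which may be technical.

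Glycolysis splits glucose into pyruvate, first by steps that spend ATP and then by steps that return it. Lactate dehydrogenase interconverts pyruvate and lactate as a tetramer of A and B subunits, and the A-rich tetramers are classically linked to muscle and the B-rich ones to heart. The cornea has no blood vessels and takes much of its glucose from the aqueous humour across the corneal endothelium, the cell layer on its inner face. Periocular neural crest cells migrate around the eye and form this endothelium and the keratocytes, the fibroblasts of the corneal stroma.

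Summed expected counts ran from 18405559 to 22055958 at E3, from 18815844 to 23205388 at E5 and from 9874339 to 13740392 at E7, and the lowest count of any of the 9 genes in any library was 429 (PFKP). The corneal libraries did not separate by their labels. By Pearson correlation of log2(CPM + 1) over genes, which are not independent of each other, E5 library 3 was nearer to E7 libraries 1 and 2 (0.975 and 0.981) than to the other E5 libraries (0.941 and 0.948). E7 library 3 was nearer to E5 libraries 1 and 2 (0.985 and 0.981) than to the other E7 libraries (0.926 and 0.937). Several results that rest on these libraries are therefore given with and without E5 library 3 and E7 library 3. That choice was made from the same expression values, so p-values of the fits without them are descriptive. The crest factor SOX10 stood at no more than 1.0 FPKM (the authors' level scaled to transcript length and library size) in the corneal libraries and at 14.5 to 17.2 at E3. The other members of the crest list did not all follow it. Of 10 tested, 3 were higher at E5 against E3 (TFAP2B, NGFR and SNAI2, with log2 fold changes of 3.49, 1.14 and 0.55) and 4 lower (SOX10, FOXD3, PAX3 and SOX9). At E7 against E3, 2 were higher (TFAP2B and NGFR, 3.26 and 1.07) and the same 4 lower. Over all genes, 18.4% were higher and 17.7% lower at E5, and 17.3% higher and 16.4% lower at E7. SOX10, FOXD3, PAX3 and SOX9 had log2 fold changes of -6.41, -6.89, -6.34 and -3.30 at E5. At E7 these were -4.83, -6.31, -6.52 and -2.52. TFAP2B is also on the list of corneal endothelium genes. The crest list, with TFAP2B in it, summed to 965 to 1455 CPM in the corneal libraries and 559 to 659 CPM at E3. KERA of the stroma stood at 601 to 1952 FPKM in the corneal libraries and 19.3 to 28.5 at E3, and AQP1 of the endothelium at 524 to 1085 in the corneal libraries and at most 1.20 at E3.

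LDHA rose at both corneal stages relative to E3, TPI1 and PGK1 fell at both, and none of the other 6 genes passed the test at both. In E5 endothelium against E3 crest, 3 of the 9 genes were higher (LDHA, PFKP and ALDOC) and 2 lower (TPI1 and PGK1) at an adjusted p under 0.05 by edgeR's quasi-likelihood test with Benjamini-Hochberg adjustment over all genes. In the same comparison 36.1% of 11727 genes passed, 18.4% higher and 17.7% lower. In E7 tissue against E3 crest, 1 was higher (LDHA) and 2 lower (TPI1 and PGK1), where 33.7% of all genes passed, 17.3% higher and 16.4% lower. With both corneal stages averaged against E3, 2 were higher (LDHA and ALDOC) and 2 lower (TPI1 and PGK1), where 41.7% of all genes passed, 20.9% higher and 20.8% lower. The median log2 fold change of the 9 genes was -0.05, -0.06 and -0.07 in these comparisons, against 0.03, 0.04 and 0.03 over all genes. On the FPKM scale, all E5 libraries lay above all E3 libraries in 2 of the 9 genes and below in 4, where 20.0% and 36.4% of all genes did. All E7 libraries lay above all E3 libraries in 1 and below in 5, where 20.4% and 34.3% of all genes did. With the 6 corneal libraries set against E3 the counts were 1 and 4, where 16.2% and 30.5% of all genes did. The comparisons share the E3 libraries. In bulk tissue, fewer cells of a type and less RNA per cell cannot be told apart.

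**Figure D1:**
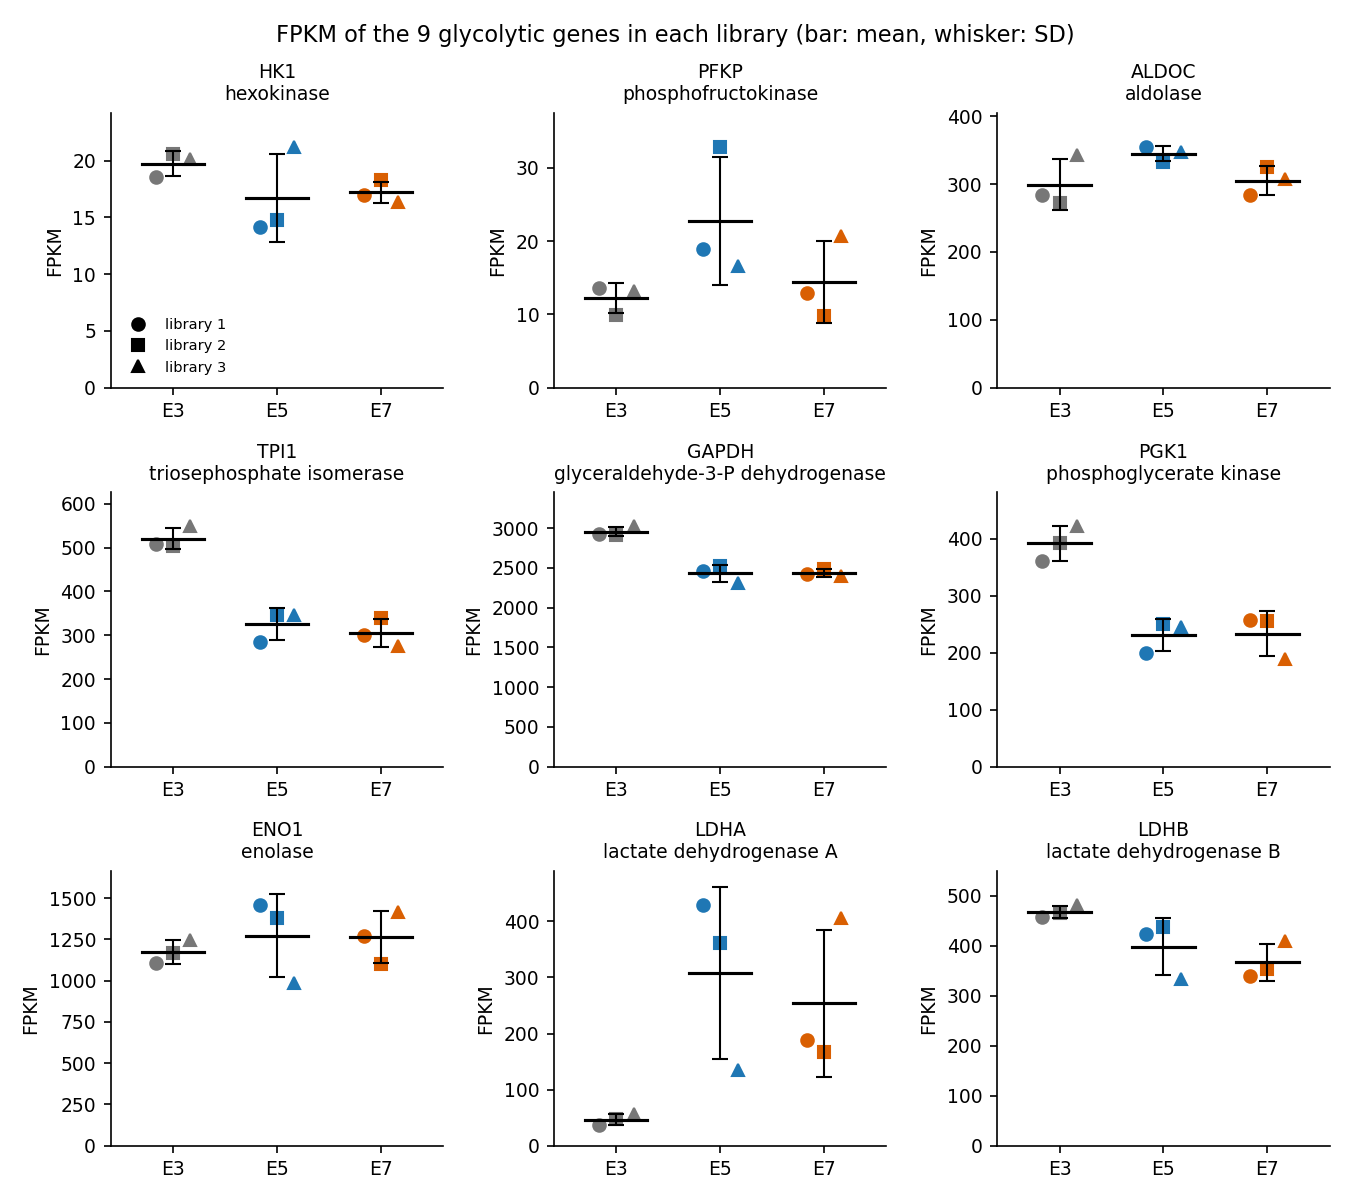
FPKM of each of the 9 genes (vertical axes, each starting at 0) in the 3 libraries of E3 crest, E5 endothelium and E7 tissue; symbols mark the library number, the bar is the mean and the whisker the SD. LDHA lies at 134 to 429 FPKM in the corneal libraries and 36.0 to 56.2 at E3, while TPI1, PGK1, GAPDH and LDHB are lower on this scale in all 6 corneal libraries than in any E3 library.

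Of the steps that spend ATP, hexokinase and phosphofructokinase had the lowest levels of the 9. HK1 (gene ID 373889), a hexokinase that phosphorylates glucose on entry, stood at 18.5, 20.6 and 20.1 FPKM in E3 libraries 1 to 3, at 14.2, 14.7 and 21.2 at E5, and at 17.0, 18.2 and 16.4 at E7. The E5 libraries lay on both sides of the E3 range, and all 3 E7 libraries lay below it on the FPKM scale but overlapped it as CPM with TMM factors. The log2 fold change was -0.07 ± 0.13 (SE) at E5 against E3 and -0.06 ± 0.13 at E7 against E3 (adjusted p = 0.7 and 0.749). Without E5 library 3 and E7 library 3 it was -0.24 and -0.06 (adjusted p = 0.0513 and 0.587). HK2, the other hexokinase at a comparable level, lay between 18.6 and 30.5 FPKM, so that HK1 made up 36.1% ± 5.6 of the summed hexokinase FPKM at E5 and 40.7% ± 4.6 at E3 (SD, n = 3 each).

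PFKP (gene ID 428411), the platelet-type phosphofructokinase of the main control step, stood at 13.6, 9.86 and 13.2 FPKM at E3, at 19.0, 32.8 and 16.5 at E5, and at 12.9, 9.77 and 20.7 at E7. All 3 E5 libraries lay above all E3 libraries, and E5 library 2 was the highest of the 9. The rise at E5 against E3 had a log2 fold change of 1.08 ± 0.36 (adjusted p = 0.0461) and was lost in 11 of 19 alternatives, among them without E3 library 1, 2 or 3 and without E5 library 1 or 2, with adjusted p up to 0.152. Without E5 library 3 and E7 library 3 that log2 fold change was 1.29 (adjusted p = 0.00401). At E7 against E3 the log2 fold change was 0.40 ± 0.36 (adjusted p = 0.428), and -0.01 without E5 library 3 and E7 library 3 (adjusted p = 0.972).

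The liver-type enzyme PFKL was higher at both corneal stages. It stood at 16.8, 16.1 and 19.5 FPKM at E3, at 32.1, 27.4 and 24.3 at E5, and at 23.2, 25.8 and 27.7 at E7, with every corneal library above every E3 library. Its log2 fold change was 0.86 ± 0.15 at E5 against E3 (adjusted p = 0.00409) and 0.69 ± 0.15 at E7 against E3 (adjusted p = 0.0108). PFKP made up 43.7% ± 9.6 of the summed phosphofructokinase FPKM at E5 and 39.3% ± 3.1 at E3 (SD, n = 3 each). This difference gave an exact permutation p of 0.6, two-sided.

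ALDOC (gene ID 395492), an aldolase that cleaves fructose 1,6-bisphosphate, stood at 284, 272 and 342 FPKM at E3, at 354, 332 and 347 at E5, and at 283, 325 and 307 at E7. E3 library 3 lay within the E5 range, while as CPM with TMM factors all E5 libraries lay above all E3 libraries. The log2 fold change at E5 against E3 was 0.38 ± 0.11 (adjusted p = 0.0274). This call was lost in 8 of 19 alternatives, among them library size alone (0.20, adjusted p = 0.154), the limma fits on FPKM, and leaving out E3 library 1 or 2 or E5 library 1 or 2. In the averaged comparison it was 0.27 ± 0.10 (adjusted p = 0.0493) and passed in 4 of 18 alternatives.

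TPI1 (gene ID 396435) encodes the isomerase that turns one triose phosphate into the other, so that all of the sugar enters the later steps. It stood at 509, 504 and 548 FPKM at E3, at 284, 347 and 347 at E5, and at 301, 340 and 276 at E7, and all 6 corneal libraries lay below all E3 libraries. The fall had a log2 fold change of -0.50 ± 0.09 at E5 against E3 (adjusted p = 0.00467) and -0.63 ± 0.09 at E7 against E3 (adjusted p = 0.0018). It passed in all 19 alternatives of each comparison, with log2 fold changes between -0.68 and -0.43 and between -0.77 and -0.57.

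GAPDH (gene ID 374193), which oxidises glyceraldehyde 3-phosphate, was the most abundant of the 9, at place 2 of 14080 genes by mean FPKM at E3 and place 3 at E5 and E7. It stood at 2923, 2920 and 3024 FPKM at E3, at 2459, 2526 and 2314 at E5, and at 2421, 2489 and 2398 at E7, all 6 corneal libraries below all E3 libraries. As CPM with TMM factors the E5 and E3 libraries overlapped. The E7 libraries still lay below all E3 libraries on that scale, at 3088 to 3290 against 3423 to 3605. The log2 fold change was -0.10 ± 0.08 at E5 against E3 and -0.14 ± 0.08 at E7 against E3 (adjusted p = 0.347 and 0.198). Scaled by library size alone it was -0.28 in both (adjusted p = 0.0122 and 0.0136), where the median over all genes stood at -0.145 and -0.101 in place of 0.03 and 0.04.

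PGK1, the phosphoglycerate kinase that returns the first ATP, fell beside TPI1. The RefSeq table lists its gene ID under PGK2 with PGK1 as a synonym. It stood at 360, 393 and 422 FPKM at E3, at 200, 250 and 246 at E5, and at 257, 255 and 189 at E7, and no corneal library reached the lowest E3 library. The log2 fold change was -0.58 ± 0.12 at E5 against E3 (adjusted p = 0.00818) and -0.62 ± 0.12 at E7 against E3 (adjusted p = 0.00685). Both calls held in all 19 alternatives, with log2 fold changes between -0.76 and -0.50 and between -0.76 and -0.51.

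ENO1 (gene ID 396017), the enolase that forms phosphoenolpyruvate, was the next most abundant after GAPDH. It stood at 1103, 1169 and 1247 FPKM at E3, at 1456, 1378 and 983 at E5, and at 1272, 1102 and 1417 at E7, so that each corneal group had libraries inside or below the E3 range. The log2 fold change was 0.30 ± 0.19 at E5 against E3 and 0.25 ± 0.19 at E7 against E3 (adjusted p = 0.24 and 0.335). Without E5 library 3, the lowest of the 9, the first was 0.48 (adjusted p = 0.0297). ENO1 made up 99.8% ± 0.042 of the summed FPKM of ENO1 and ENO2 at E5 and 99.9% ± 0.021 at E3 (SD, n = 3 each), with ENO2 at 0.43 to 3.52 FPKM. ENO3 had no entry, and ENO4, at 0.66 to 1.33 FPKM, was left out of the sum.

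LDHA (gene ID 396221) had the largest fold change of the 9 at both corneal stages against E3. It stood at 36.0, 47.1 and 56.2 FPKM at E3, at 429, 361 and 134 at E5, and at 189, 167 and 405 at E7. Every corneal library lay above every E3 library, and the corneal libraries themselves ranged from 134 to 429 FPKM, with E5 library 3 lowest and E5 library 1 highest. LDHA was 7.60-fold higher at E5 than at E3 (log2 fold change 2.93 ± 0.54, adjusted p = 0.00452) and 6.11-fold higher at E7 than at E3 (2.61 ± 0.53, adjusted p = 0.00738). Both calls held in all 19 alternatives, with log2 fold changes between 2.56 and 3.30 and between 2.04 and 2.85. In the order of genes by mean FPKM, LDHA stood at place 1561 at E3, 166 at E5 and 196 at E7.

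Its sum came from 2 entries of the files that moved together. The entry named by gene number held 38.6 to 45.1% of the LDHA FPKM of a library, and the accession entry the remaining 54.9 to 61.4%. Reads that both transcripts share were divided between them by the authors' counting, so the split itself is uncertain.

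LDHB (gene ID 373997) was high at every stage. It stood at 457, 466 and 481 FPKM at E3, at 424, 438 and 334 at E5, and at 339, 354 and 409 at E7, with all corneal libraries below all E3 libraries on the FPKM scale. As CPM with TMM factors they overlapped, at 456 to 633 in the corneal libraries and 570 to 611 at E3. The log2 fold change was -0.05 ± 0.15 at E5 against E3 and -0.21 ± 0.15 at E7 against E3 (adjusted p = 0.828 and 0.312). At E5 against E3 its sign turned without E5 library 3 (0.09, adjusted p = 0.574). At E7 against E3 it was -0.33 without E5 library 3 and E7 library 3 (adjusted p = 0.00343) and -0.35 by limma on log2(FPKM + 1) (adjusted p = 0.0451).

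The balance of the lactate dehydrogenase subunits differed between E3 and the corneal stages. The ratio of LDHA to LDHB FPKM was 0.0787, 0.101 and 0.117 in the E3 libraries, 1.01, 0.824 and 0.402 at E5, and 0.557, 0.472 and 0.991 at E7. No corneal library overlapped the E3 libraries, and LDHA reached the level of LDHB in E5 library 1 and nearly so in E7 library 3. With the gene-number entry of LDHA alone the ratio was 0.171 to 0.422 in the corneal libraries and 0.0304 to 0.0526 at E3, so that its level depends on the accession entry and the separation does not. As log2 the ratio of the sums averaged -0.526 ± 0.698 at E5 and -3.358 ± 0.288 at E3 (SD, n = 3 each), a difference of 2.832. At E7 it averaged -0.647 ± 0.562, a difference from E3 of 2.711. Both differences gave an exact permutation p of 0.1, two-sided, the smallest that 3 against 3 libraries allow.

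With the 6 corneal libraries set against the 3 of E3, the log2 ratio differed by 2.771 and the exact permutation p was 0.0238, the smallest this design allows (Benjamini-Hochberg adjusted over 4 comparisons, 0.0952). Between E7 and E5 it differed by -0.121 (exact permutation p = 0.9), with overlapping libraries. As a share of the summed lactate dehydrogenase FPKM, LDHA made up 7.29 to 10.5% at E3, 28.7 to 50.3% at E5 and 32.0 to 49.8% at E7. The sum of LDHA and LDHB was 493 to 537 FPKM at E3. It was 852 and 799 FPKM in E5 libraries 1 and 2 and 814 in E7 library 3, against 469 in E5 library 3 and 528 and 521 in E7 libraries 1 and 2.

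**Figure D2:**
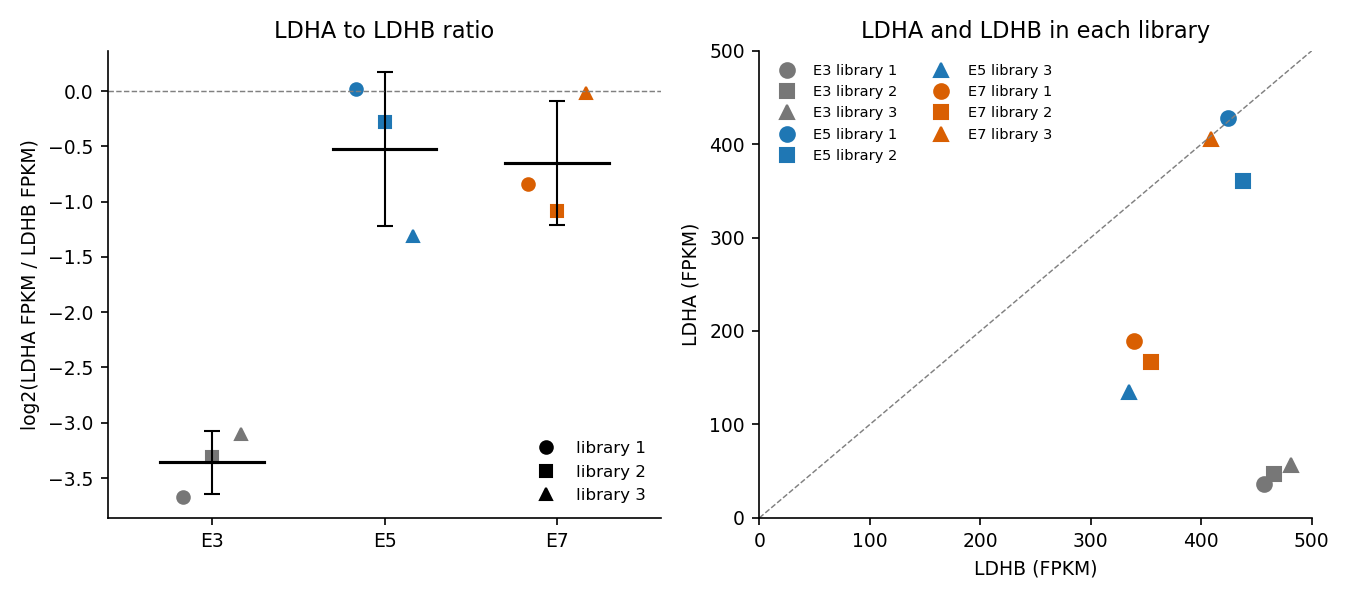
Left, log2 ratio of LDHA to LDHB FPKM in each library by stage, with mean (bar) and SD (whisker); right, LDHA against LDHB in FPKM, 1 point per library; dashed lines mark equal levels. The means lie at -3.358 at E3, -0.526 at E5 and -0.647 at E7, and E5 library 1 and E7 library 3 lie next to the line of equal levels.

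The E7 and E5 tissues were not told apart by the test in any of the 9 genes. None had an adjusted p under 0.05 or an unadjusted p under 0.05 by edgeR's quasi-likelihood test, where 0.00% of 11727 genes passed after adjustment and 2.38% (279 genes) at the unadjusted threshold. DESeq2 called 11 genes of the whole table and limma 0 or 1, depending on the pseudocount. The log2 fold changes at E7 against E5 ran from -0.69 ± 0.36 for PFKP to 0.01 for HK1, and adjusted p from 0.971 to 0.997. ALDOC alone had libraries that did not overlap, at 283 to 325 FPKM at E7 and 332 to 354 at E5, where 4.65% of all genes had such groups.

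Without E5 library 3 and E7 library 3, more genes passed in this comparison. Only libraries 1 and 2 of each corneal stage then remained. The libraries left out were picked by their expression in these same data. Leaving them out therefore tends to lower the spread within each group and to widen the gap between groups. The adjusted p-values of these fits are descriptive and do not establish a difference between E7 and E5. LDHA (log2 fold change -1.26, adjusted p = 0.00558), LDHB (-0.43, 0.00396), PFKP (-1.31, 0.0167) and ENO1 (-0.37, 0.0365) were then lower at E7 than at E5. Of all 11960 genes, 22.8% passed in either direction, 1352 genes higher and 1375 lower. With those libraries left out, the LDHA log2 fold change was 3.30 at E5 against E3 (adjusted p = 1.59e-05) and 2.04 at E7 against E3 (adjusted p = 0.000203). In these fits 6 of the 9 genes passed at E5 against E3, ENO1 being the added one (0.48, adjusted p = 0.00354), where 50.0% of all genes did. At E7 against E3, 5 passed, LDHB and GAPDH (-0.17, adjusted p = 0.0295) being added, where 42.6% of all genes did. In the averaged comparison, 5 passed (ENO1, 0.30, adjusted p = 0.0133, and PFKP, 0.64, adjusted p = 0.04, added, and ALDOC lost, adjusted p = 0.0558), where 52.0% of all genes did.

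**Figure D3:**
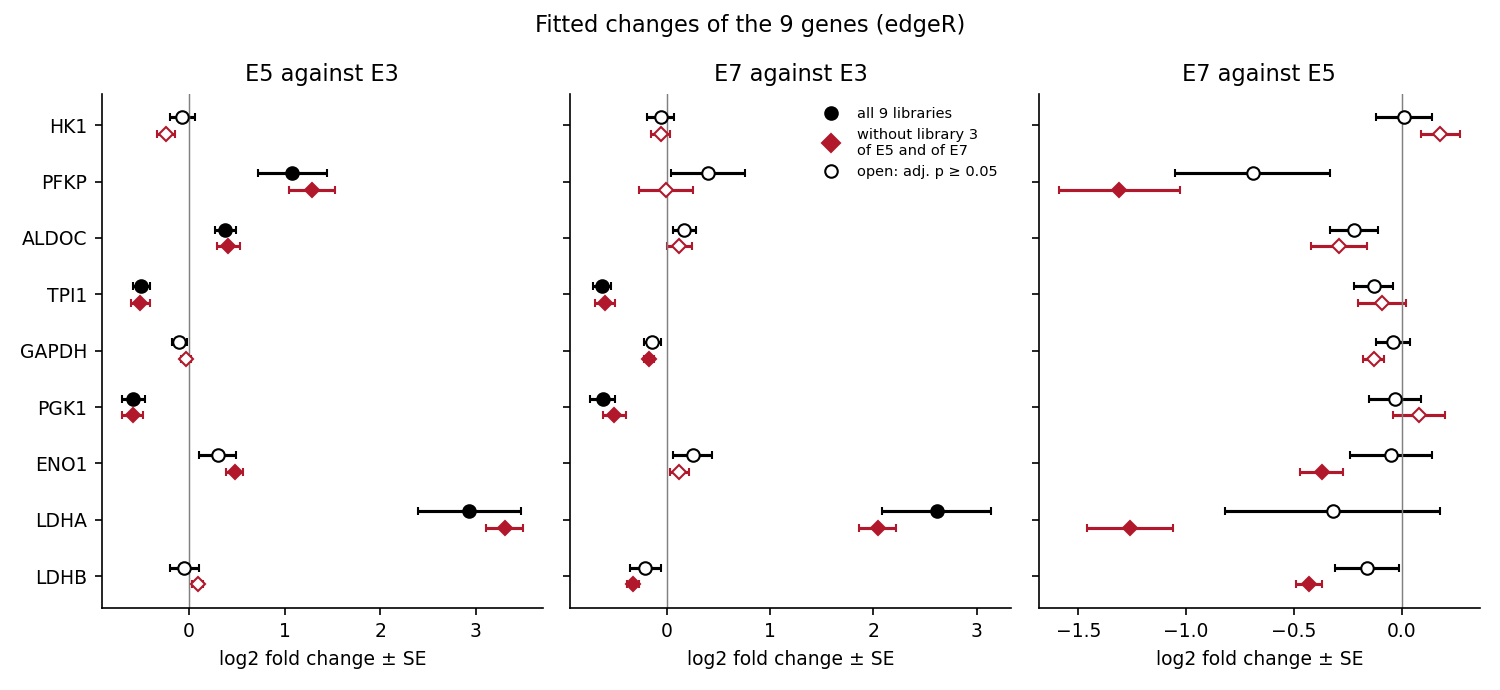
Log2 fold changes of the 9 genes with their SE (whiskers) for each pair of stages by edgeR, with all 9 libraries (black circles) and without E5 library 3 and E7 library 3 (red diamonds); filled symbols had an adjusted p under 0.05. LDHA lies at 2.93 and 2.61 against E3 and TPI1 and PGK1 between -0.63 and -0.50 (circles), and at E7 against E5 no circle but 4 diamonds are filled.

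By mean FPKM, GAPDH and ENO1 were on top of the 9 at each stage. At E3 the order was GAPDH, ENO1, TPI1, LDHB, PGK1, ALDOC, LDHA, HK1 and PFKP, and no neighbours overlapped. At E5 the libraries of LDHB, ALDOC, TPI1, LDHA and PGK1 overlapped with their neighbours in this order, as did PFKP and HK1. At E7 LDHB, TPI1, ALDOC, LDHA and PGK1 overlapped in that order, as did HK1 and PFKP. The 9 genes summed to 5704, 5800 and 6153 FPKM at E3, to 5638, 5681 and 4743 at E5, and to 5091, 5059 and 5438 at E7. GAPDH took 43.6 to 51.2% of this sum. LDHA took 0.63 to 0.91% at E3, 2.83 to 7.60% at E5 and 3.30 to 7.45% at E7.

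Counted in either direction, the other glycolytic genes passed the test about as often as genes in general, and most that passed were higher. Of 22 other glycolytic genes listed, 15 had an entry and were tested, and 5 were higher, among them PFKL, ADPGK, HK3 and ENO2, and 0 lower at E5 against E3. At E7 against E3, 5 were higher, among them PFKL, ADPGK and ENO2, and 1 lower (LDHD). Over all genes, 36.1% passed at E5 against E3, 18.4% higher and 17.7% lower. At E7 against E3, 33.7% of all genes passed, 17.3% higher and 16.4% lower. The list was not tested against these shares. HK3, ENO2 and LDHD stayed at or under 3.52 FPKM in every library. ADPGK, which phosphorylates glucose with ADP, stood at 45.4 to 46.4 FPKM at E5 and 33.0 to 34.9 at E3 (log2 fold change 0.60 ± 0.10, adjusted p = 0.00249). HKDC1 stood at 0.07 to 0.51 FPKM and PFKM at 0.00 to 1.70 FPKM, and neither passed. Outside the naming rule, and named after their values were seen, PKM of the pyruvate step stood at 480 to 588 FPKM, PGAM1 at 261 to 401 and GPI at 148 to 335, and none of these passed with all libraries. With E5 library 3 and E7 library 3 left out, GPI was lower at E5 against E3 (-0.44 ± 0.13, adjusted p = 0.0289) and stood at 0.35 ± 0.13 at E7 against E3 (adjusted p = 0.0685). The table lists the gene ID of PKM under PKLR with PKM as a synonym.

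Of 12 regulators of glycolysis and of the reverse pathway, 7 were tested and 1 passed at each corneal stage against E3. Over all genes, 36.1% passed at E5 against E3 and 33.7% at E7 against E3. FBP1, which runs the phosphofructokinase step backwards in gluconeogenesis, stood at 2.15, 2.85 and 2.22 FPKM at E3, at 8.03, 6.69 and 10.2 at E5, and at 19.7, 12.8 and 7.39 at E7. It was higher in all 6 corneal libraries (log2 fold change 1.95 ± 0.34 at E5 against E3, adjusted p = 0.0035; 2.58 ± 0.34 at E7 against E3, adjusted p = 0.00118). Among the corneal libraries it was highest where the summed list of epithelium markers was, in E5 library 3 and E7 libraries 1 and 2. That list summed to 150, 275 and 170 CPM in these 3 libraries, against 32.1 to 54.0 CPM in the other 6. Of its markers, EPCAM stood at 31.7, 72.5 and 37.9 FPKM in them, against 1.61 to 4.41 in the other 6, and the basal keratin KRT5 was at most 0.08 FPKM in every library. The part of that list in the FBP1 values was not tested.

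With all libraries, no tested transporter of glucose or lactate passed as higher at a corneal stage. Of 17 listed, 13 were tested, and 0 were higher and 2 lower at E5 against E3 (EMB and SLC2A9). At E7 against E3, 0 were higher and 1 lower (SLC2A9). SLC2A9 was low in every library, at 0.77 to 0.92 FPKM at E3 and 0.04 to 0.13 in the corneal libraries. Over all genes, 18.4% were higher and 17.7% lower at E5, and 17.3% higher and 16.4% lower at E7. The list was not tested against these shares. Without E5 library 3 and E7 library 3, 1 transporter was higher at E5 against E3, the sugar transporter SLC2A12 (log2 fold change 0.90 ± 0.19, adjusted p = 0.00648). In that fit 50.0% of all genes passed in either direction. EMB, an accessory protein of monocarboxylate transporters, stood at 0.80, 0.80 and 1.93 FPKM at E5, against 6.04, 6.85 and 5.29 at E3 (log2 fold change -2.21 ± 0.52, adjusted p = 0.0129). Named after their values were seen, the glucose transporter SLC2A1 stood at 14.6 to 24.3 FPKM, the lactate transporter SLC16A1 at 57.8 to 84.2 and its partner BSG at 205 to 270, and none passed. SLC16A3, a lactate exporter, stood at 7.11, 6.17 and 2.95 FPKM at E5 and 4.84, 6.22 and 5.52 at E3 (log2 fold change 0.16 ± 0.49, adjusted p = 0.823). At E7 it stood at 3.04, 2.38 and 7.25 FPKM (log2 fold change against E3 of -0.23 ± 0.49, adjusted p = 0.752). Without E5 library 3 and E7 library 3 it was lower at E7 against E3 (-0.93 ± 0.21, adjusted p = 0.00965), as was EMB (-1.07 ± 0.33, adjusted p = 0.0361). Like LDHA it was highest in E5 libraries 1 and 2 and E7 library 3, except that E3 library 2, at 6.22 FPKM, lay above E5 library 2.

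Genes that pass pyruvate into mitochondria passed the test about as often as genes in general. Of 13 tested, 4 were lower at E5 against E3 (PDHX, PDHB, DLAT and MPC1) and 1 higher (PDK4), and 4 were lower at E7 against E3 (PDK1, DLAT, PDHX and PDHB) and 1 higher (PDK4). Over all genes, 17.7% were lower and 18.4% higher at E5, and 16.4% lower and 17.3% higher at E7. PDHB, a subunit of pyruvate dehydrogenase, stood at 34.8, 36.8 and 38.9 FPKM at E5, against 53.5, 61.5 and 56.9 at E3 (log2 fold change -0.46 ± 0.08, adjusted p = 0.00439). DLAT, the acetyltransferase of the same complex, stood at 23.3, 25.1 and 23.0 FPKM at E7, against 34.8, 36.6 and 38.3 at E3 (-0.48 ± 0.08, adjusted p = 0.00368). PDK1, a kinase that inhibits the complex, stood at 15.1, 14.1 and 19.9 FPKM at E7, against 27.1, 30.0 and 29.3 at E3 (-0.67 ± 0.19, adjusted p = 0.0289). Of 4 tested genes of the pentose phosphate pathway, which branches off above the aldolase step, 1 was lower at each corneal stage (RPIA, -0.50 at E5 and -0.43 at E7, adjusted p = 0.00258 and 0.00565). Named after its values were seen, the transaldolase TALDO1 stood at 88.6, 86.5 and 163 FPKM at E5 and 283, 205 and 94.9 at E7, against 135, 132 and 133 at E3, and did not pass with all libraries (adjusted p = 0.886 and 0.182). With E5 library 3 and E7 library 3 left out, it was lower at E5 against E3 (-0.39 ± 0.13, adjusted p = 0.0402) and higher at E7 against E3 (0.97 ± 0.13, adjusted p = 0.000981).

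The listed genes of the pathway of hypoxia-inducible factor, none of them among the 9, went both ways. Of 21 tested, 6 were higher and 4 lower at E5 against E3, and 4 were higher and 4 lower at E7 against E3. Of all genes, 36.1% and 33.7% passed in these comparisons, so the counts say little about the list. Without E5 library 3 and E7 library 3, 8 were higher and 5 lower at E5 against E3. At E7 against E3, 4 were then higher and 8 lower. In those fits 50.0% and 42.6% of all genes passed. The collagen prolyl hydroxylases P4HA2 and P4HA1 rose at E5 against E3 (log2 fold change 1.71 ± 0.13 and 1.15 ± 0.21, adjusted p = 8.3e-05 and 0.00444) and at E7 against E3 (1.92 ± 0.13 and 1.18 ± 0.21). The angiogenic factor VEGFA rose at E5 (1.22 ± 0.38, adjusted p = 0.0385) and the peptide hormone ADM at both stages (0.84 ± 0.24 and 0.99 ± 0.24). The carbonic anhydrase CA9 (-1.82 ± 0.35 and -1.18 ± 0.35), the transferrin receptor TFRC (-1.30 ± 0.18 and -1.34 ± 0.18) and the oxygen sensor EGLN1 (-0.43 ± 0.12 and -0.51 ± 0.12) fell at E5 and E7 against E3. HIF1A itself, named after its values were seen, stood at 36.7 to 43.4 FPKM at E3, 29.7 to 33.9 at E5 and 26.2 to 30.8 at E7 and did not pass at E5 or E7 against E3 (adjusted p = 0.592 and 0.0794). Without E5 library 3 and E7 library 3 it was lower at E7 against E3 (-0.45 ± 0.09, adjusted p = 0.00528) and in the averaged comparison (-0.23 ± 0.07, adjusted p = 0.0288). EPAS1, which encodes another alpha subunit of the factor, stood at 0.08, 0.10 and 2.61 FPKM at E5 and 1.68, 2.53 and 0.10 at E7, against 12.7, 13.7 and 13.4 at E3. It was lower in the averaged comparison (-3.32 ± 1.06, adjusted p = 0.0361) and did not pass at E5 or E7 against E3 alone (adjusted p = 0.0767 and 0.117). Without the same libraries it was -6.89 ± 0.24 at E5 against E3 and -2.50 ± 0.17 at E7 against E3 (adjusted p = 1.83e-06 and 5.15e-05). Among the corneal libraries EPAS1 was highest in E5 library 3 and E7 libraries 1 and 2, as was the vascular marker CDH5. CDH5 stood at 3.83, 2.02 and 3.17 FPKM in them and at least 35.6 at E3. Of 15 vascular markers tested, 7 were lower and 2 higher at E5 against E3, where 17.7% and 18.4% of all genes were. The part of that list in the EPAS1 values was not tested.

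The LDHA pattern over the 9 libraries was most like those of NDFIP1, COLGALT1, FKBP7, DCN and TMEM263, with Pearson correlations of log2(FPKM + 1) between 0.991 and 0.997 among 5638 genes with a mean of 10 FPKM or more. NDFIP1 is a ubiquitin ligase adaptor, COLGALT1 a collagen galactosyltransferase and DCN the stromal proteoglycan decorin. These correlations are descriptions over libraries of 3 tissues and carry no test. DCN stood at 86.7, 103 and 88.0 FPKM at E3, at 1605, 1419 and 407 at E5, and at 718, 462 and 1694 at E7, the same order of corneal libraries as LDHA except between E5 library 1 and E7 library 3. For LDHB the nearest were LMNB2, MAP2K6, SNX7, ASPG and ZFYVE9, with correlations between 0.972 and 0.987. LMNB2, a nuclear lamin, stood at 182 to 185 FPKM at E3, 109 to 159 at E5 and 112 to 143 at E7.

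Some marker lists of tissues and cell types differed between E3 and the corneal libraries, and some among the corneal libraries. The stroma list had 11 genes with an entry, of which 9 were higher at E5 against E3, where 18.4% of all genes were. Its sum stood at 1786 to 2032 CPM at E3, at 35139, 28870 and 9355 at E5, and at 11864, 8901 and 35141 at E7. LDHA was higher in the 3 corneal libraries with 28870 CPM or more of it than in the other 3. In those other 3, at 134 to 189 FPKM, LDHA was still above the highest E3 library, at 56.2 FPKM. Erythroid transcripts, 11 of 17 listed with an entry, summed to 7.21 to 198 CPM in the corneal libraries and 2893 to 3370 at E3. The 14 cell cycle genes with an entry summed to 3039 to 3320 CPM in the corneal libraries and 4553 to 4824 at E3. Vascular markers summed to 514 to 900 CPM in the corneal libraries and 609 to 673 at E3, and its members went both ways. Over all genes, 18.4% were higher and 17.7% lower at E5 against E3, and 17.3% higher and 16.4% lower at E7 against E3. Of 15 vascular markers tested, 2 were higher and 7 lower in each of these comparisons. FLT4 (log2 fold change 2.93 at E5 and 3.00 at E7) and ERG (1.70 and 1.05) were the higher ones. Of the lower ones, the defining genes KDR and CDH5 stood at no more than 1.33 and 3.83 FPKM in the corneal libraries, against at least 13.2 and 35.6 FPKM at E3. The retina list summed to 68.5 CPM in E5 library 3 and to 82.6 and 73.9 CPM in E7 libraries 1 and 2. In all other libraries it summed to 28.5 to 38.3 CPM. Of 7 retina genes tested, none passed at E5 or E7 against E3 alone. In the averaged comparison PAX6 was higher and OTX2 lower, where 20.9% and 20.8% of all genes were. The muscle list stayed at or under 55.5 CPM, and the lens list at or under 7.50 CPM. The muscle factor MYOG and the lens crystallin CRYAA were each at 0 in some libraries and at most 0.08 and 0.57 FPKM in any. Neither was tested with all libraries. Of 3 muscle genes tested, MYF5 was lower at both stages against E3 and TNNC2 at E5. Of 3 lens genes tested, CRYBA1 was higher at both. The part of these lists in the changes of LDHA, TPI1 and PGK1 was not tested.

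**Figure D4:**
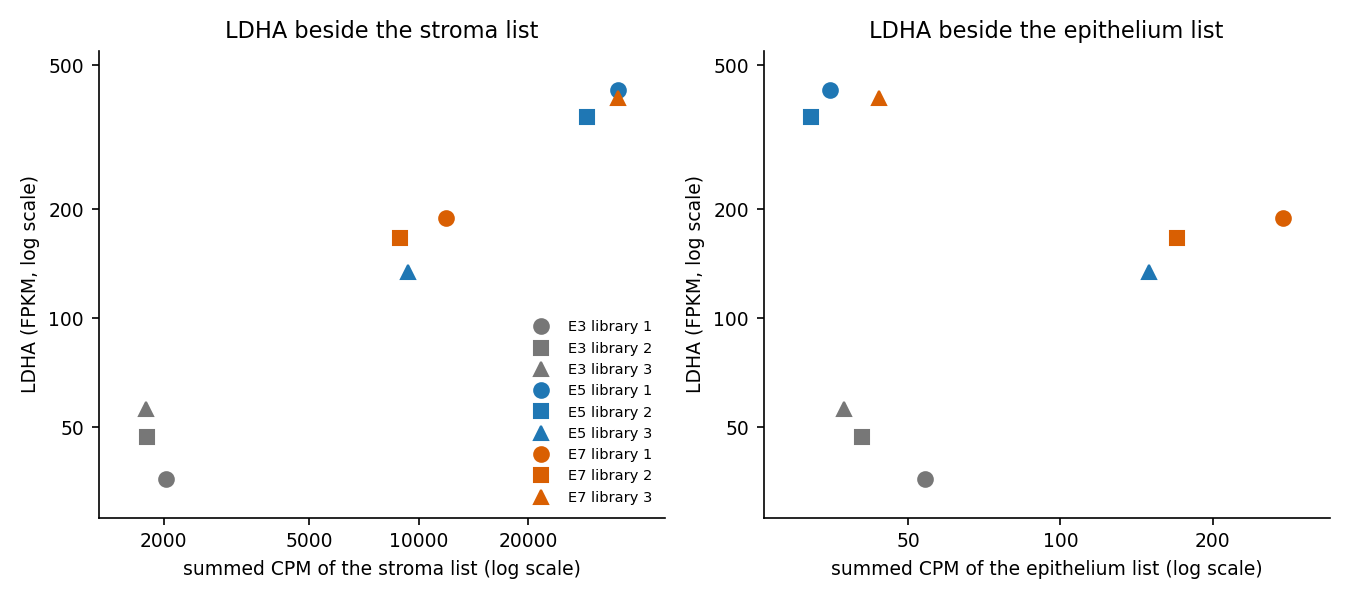
LDHA in FPKM (vertical axes, log scale) against the summed CPM of the stroma list (left, log scale) and of the epithelium list (right, log scale), 1 point per library. The 3 corneal libraries with stroma sums of 28870 to 35141 CPM hold 361 to 429 FPKM of LDHA, and the 3 with 8901 to 11864 CPM hold 134 to 189.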

How the data were processed

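Each library's file lists entries with an expected count and an FPKM, both computed by the authors, per the file headers. Per the submitters' processing notes, HISAT, Bowtie2 and the build galGal5 were used; no version, annotation or strand setting is given in the notes used here. Entries (46855) were assigned to 14080 genes by a RefSeq table of another assembly, used for names only, and summed per gene; 22937 accession entries had no match, and 76.5 to 78.5% of a library's counts fell on named genes. An entry missing from a library counted as 0. All counts entered the library sizes.

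For tests, edgeR 4.0.16 (R 4.3.3) was run on the rounded sums, with TMM factors, filterByExpr and the quasi-likelihood F-test over all 9 libraries without covariates. Of the genes, 11727 passed the filter, and Benjamini-Hochberg adjusted p-values under 0.05 were called. A log2 fold change divided by the square root of its F gives the SE. Ratios and shares use FPKM and exact permutation tests over libraries. Alternatives included limma 3.58.1 on log2(FPKM + 1) and log2(FPKM + 0.1) and DESeq2 1.42.0. The fit was tested on simulated data. Members, lists and the rule for named genes (all members, their isozyme partners, up to 4 called genes per list and direction at a mean of 5 FPKM or more, and the 5 genes most like LDHA and LDHB) were chosen with earlier results of these data known. Libraries of the same tissue differed by more than sampling noise (chi-square per degree of freedom, 9.87 to 146.7). Some listed genes are not reported here.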

Additional observations from a re-analysis of the deposited data

How the results depend on the processing

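The tests were repeated with DESeq2, RLE factors, scaling by library size alone, no filter, limma on log2(FPKM + 1) and on log2(FPKM + 0.1), gene-number entries alone, only the compared groups, a replicate block, and libraries left out. LDHA, TPI1 and PGK1 passed against E3 in the same direction in every one of them. With gene-number entries alone, which tests fewer genes, 1793, 1731 and 2186 genes were called at E5 against E3, E7 against E3 and in the averaged comparison, LDHB was 0.02 (E5 against E3), HK1 0.01 (E7 against E3) and the PFKP share of phosphofructokinase differed by -1.356 percentage points (averaged). At E7 against E5, DESeq2 called 11 genes and limma on log2(FPKM + 0.1) called 1. In that comparison ENO1, PGK1 and GAPDH turned to between 0.00 and 0.01 on the log2 scale with library size alone or by limma. Limma on log2(FPKM + 0.1) called 5 of the 9 genes at E7 against E3, LDHB and GAPDH being added, both lower. That fit called 4395 of all 11727 genes, 1582 higher and 2813 lower. Its log2 fold changes were shifted downward across the tested genes, with a median of -0.12 in place of 0.04 by edgeR.

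Replicate numbers were not shown to pair the libraries: deviations of same-numbered libraries correlated at -0.772 to 0.084. With the replicate block, 3124 genes and 3 of the 9 were called at E5 against E3, ALDOC and PFKP being lost.

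Without each library in turn, or without E5 library 3 and E7 library 3 together, 2770 to 5977 genes and 3 to 6 of the 9 were called at E5 against E3. The counts were 2578 to 5093 genes and 3 to 5 of the 9 at E7 against E3, and 0 to 2727 genes and 0 to 4 of the 9 at E7 against E5. LDHB (-0.13 to 0.09) and HK1 (-0.24 to 0.01) changed sign at E5 against E3, PFKP (-0.01 to 0.63) at E7 against E3, and LDHA (-1.26 to 0.02), ENO1 (-0.37 to 0.08), PGK1 (-0.11 to 0.08) and HK1 (-0.07 to 0.18) at E7 against E5. The log2 ratio of LDHA to LDHB differed by -0.832 to 0.149 at E7 against E5 and by 2.616 to 2.917 in the averaged comparison. There the smallest p allowed passes 0.05 without an E3 library. The LDHA share differed by -13.809 to 2.268 and by 29.318 to 33.636 percentage points in these comparisons. The HK1 share differed by -1.289 to 3.263 (E7 against E3) and -4.034 to 0.518 points (averaged), the PFKP share by -0.925 to 8.246 (E5 against E3) and -2.823 to 2.663 points (averaged), and in the averaged comparison the ALDOC share by -5.11 to -2.489 and the ENO1 share by -0.129 to -0.103 points. The causes were not tested. With 3 libraries a group, exact tests between stages cannot go below p = 0.1; the lowest count of any of the 9 genes in a library was 429.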
